A study of Mus musculus with 50 samples.

Results

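The matrix proteases and their inhibitors comprised 51 of the 24984 genes in the count tables, and they were taken by name alone: every gene called Mmp, Adamts or Adamtsl followed by a number, and Timp1 to Timp4. They fell into 4 TIMPs, 17 secreted or other MMPs, 6 membrane-type MMPs, 19 ADAMTS proteases and 5 ADAMTS-like genes. Their mRNA was followed in 38 RNA-seq libraries of 10 groups, all from C57BL/6 mice, and the study names its mice as female. Untreated kidney and liver came from young mice of 2.5 months and from old mice of 23 to 25 months, with 4 libraries per group. Kidney and liver of mice of 20 to 21 months that had received DMSO or 3C gave 4 libraries per group, and skin fibroblasts labelled P9 and given DMSO or 3C gave 3 libraries per group. What 3C is and its dose are not stated in the labels, and DMSO was its control in all 3 settings. ATAC-seq peak lists of young and old kidney and liver, with 3 libraries per group, showed where chromatin was open near the starts of these genes.

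Matrix metalloproteinases (MMPs) are zinc enzymes that are made as inactive proenzymes and cut collagens, laminins, elastin and other proteins outside the cell. Membrane-type MMPs stay at the cell surface, where Mmp14 also activates proMmp2. ADAMTS proteases cut proteoglycans such as aggrecan and versican, process procollagens or cut von Willebrand factor, whereas ADAMTS-like proteins lack the catalytic domain and bind microfibrils. TIMPs block the active site of these enzymes and Timp3, which binds to the matrix, is also known to inhibit ADAMTS proteases. Several MMP genes lie side by side in a cluster and are textbook targets of AP-1, the dimeric factor of the Fos and Jun families that binds TGAGTCA and TGACTCA.

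The cluster lies on chromosome 9 of the mouse, where 10 MMP genes share 427.1 kb (GRCm38, 7272514 to 7699585). The AP-1 core TGANTCA, which reads the same on both strands, was looked for in the 250 bases upstream of each RefSeq transcription start. Of 27025 genes with such a stretch 7.82% held it in at least 1. Of the 51 members 36 had a stretch, and 8 of these (22.2%) held the core. All 8 were genes of the cluster (Mmp13, Mmp12, Mmp1b, Mmp3, Mmp1a, Mmp10, Mmp20 and Mmp7), with the core beginning 35 to 95 bases upstream of the start, and none of the 26 members outside the cluster with a stretch held it. A match is a run of letters and says nothing about binding. The last 100 bases before the start are shown for 5 of these genes that are described in the results and for Mmp27, the cluster gene called in old liver, which had no match. They were chosen after the values were seen, and the core is in capitals. All lie on the plus strand of GRCm38.p6, at chr9:7272414-7272513 for Mmp13, chr9:7347274-7347373 for Mmp12, chr9:7445722-7445821 for Mmp3, chr9:7502242-7502341 for Mmp10, chr9:7691990-7692089 for Mmp7 and chr9:7571296-7571395 for Mmp27.
Mmp3: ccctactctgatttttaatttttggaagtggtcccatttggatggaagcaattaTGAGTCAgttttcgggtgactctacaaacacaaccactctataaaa
Mmp7: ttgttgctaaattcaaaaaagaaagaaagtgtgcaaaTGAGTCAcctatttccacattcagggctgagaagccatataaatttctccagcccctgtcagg
Mmp10: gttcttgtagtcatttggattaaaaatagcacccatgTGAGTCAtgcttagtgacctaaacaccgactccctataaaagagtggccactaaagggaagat
Mmp12: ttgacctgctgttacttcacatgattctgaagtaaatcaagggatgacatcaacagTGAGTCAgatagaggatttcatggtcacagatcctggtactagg
Mmp13: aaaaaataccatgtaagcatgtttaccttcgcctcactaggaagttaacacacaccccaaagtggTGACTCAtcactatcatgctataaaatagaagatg
Mmp27: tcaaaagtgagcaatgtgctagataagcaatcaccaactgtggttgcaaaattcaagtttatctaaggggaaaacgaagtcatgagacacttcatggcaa

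Depth was 14238228 to 43704147 counted reads per library. The untreated libraries and the DMSO and 3C libraries carried different tallies of unplaced reads and were not tested against each other. The defining markers of each organ were present: hepatocyte markers summed to 109100 or more CPM (counts scaled to a common library total) in every liver library, proximal tubule markers to 8754 or more in every kidney library, and fibroblast and stromal markers to 11820 or more in every fibroblast library. Old kidney replicate 2 also carried liver transcripts, whose median level was 1.2% of that in old liver, against 0.0174% to 0.0464% in the other 7 untreated kidneys.

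On the scale that allows genes to be compared, CPM per kb of exon, Timp3 led in kidney, with 183.7 ± 26.3 (SD, n = 4) in young and 133.2 ± 16.3 in old kidney. Timp3 alone made up 78.0% ± 1.25 (SD) of the summed level of the members in young kidney and 63.5% ± 7.22 in old kidney. In old liver Mmp19, a secreted MMP, had the highest mean at 35.2 ± 8.81 CPM per kb, followed by Mmp14 at 24.5 ± 5.39. In DMSO fibroblasts the inhibitors Timp1 and Timp2 led with 585.6 ± 20.8 and 560.1 ± 25.3 CPM per kb (n = 3), a difference within their spread, and Mmp14 followed at 179.5 ± 11.7. The 4 TIMPs together held 85.1% of the summed level in young kidney, 67.8% in DMSO fibroblasts and 14.7% in young liver, where membrane-type MMPs held 30.7% and other MMPs 39.5%.

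Timp3 and Mmp19 share 21.3% and 22.3% of their exon length with the counted genes Syn3 and Tmem198b, and reads there cannot be told apart by counts that ignore strand. Of the 51 members 13 stayed under a mean of 1 CPM in each of the 10 groups, among them Timp4, and Adamts19 and Mmp1a had no read in any of the 38 libraries. The CPM scaled by the trimmed mean of M values (TMM) was used for every level given. Of the other 38 members 25 had their highest group mean in fibroblasts, 6 in kidney (Timp3, Mmp7, Mmp13, Adamts8, Adamts16 and Adamtsl2) and 7 in liver (Mmp8, Mmp9, Mmp12, Mmp15, Mmp19, Mmp27 and Adamts13). With plain totals in place of TMM 34 of these 38 kept the same highest group. The kidney and liver levels of Mmp12 lay close together, and its highest group became old kidney.

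In 22 of the 51 members each DMSO fibroblast library lay above all 32 kidney and liver libraries, as in 13.0% of all 24984 genes, and the count was also 22 with plain totals. Timp1 was at 499 to 535 CPM in DMSO fibroblasts, where no kidney or liver library was above 10.5 CPM. Timp2 was at 2089 to 2285 CPM, and Mmp14, the activator of proMmp2, and Mmp2 itself were at 1002 to 1142 and 431 to 572 CPM. Among the ADAMTS proteases Adamts1 was at 314 to 471, Adamts5 at 309.5 to 396 and the procollagen peptidase Adamts2 at 329 to 380.4 CPM. Adamtsl5 was at 131 to 151 CPM, the highest of the ADAMTS-like genes there. Mmp16, a membrane-type MMP, was at 12.3 to 15.4 CPM in DMSO fibroblasts and at 0 to 0.241 in young kidney. Timp3 was an exception among the abundant members, at 1102 to 1494 CPM in DMSO fibroblasts and 1192 to 1688 in young kidney, ranges that overlapped. Levels in culture and in organs were not tested against each other.

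**Figure D1:**
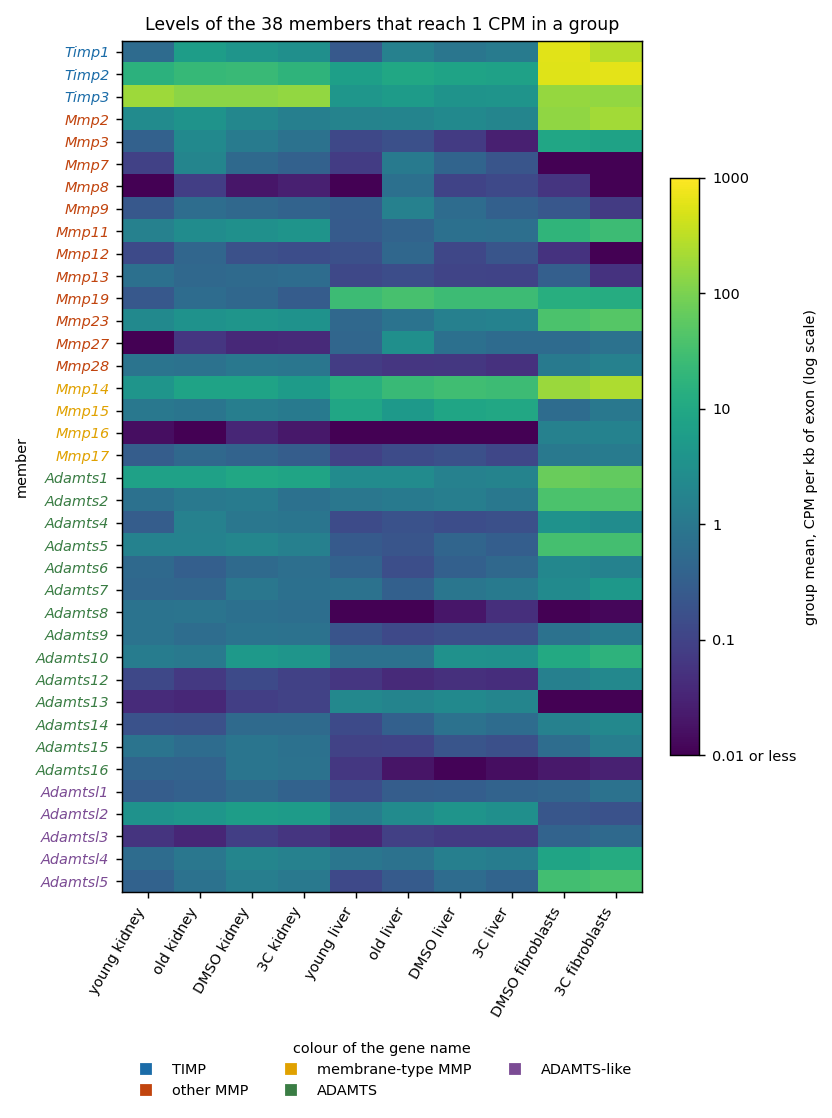
Group means of the 38 members that reach 1 CPM in at least one group, in CPM per kb of exon on a log colour scale, with the 10 groups in columns and gene names coloured by class. Timp3 is bright in the 4 kidney columns and also in the fibroblast columns. Mmp19, Mmp15 and Adamts13 stand out in the 4 liver columns, and most other rows are brightest in the fibroblast columns.

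Kidney and liver were compared in the young mice and, in separate animals, in the DMSO mice. All TIMPs tested were higher in kidney in both sets of mice, as were most of the other members called, whereas Mmp14, Mmp15, Mmp19 and Adamts13 were higher in liver. In the young mice 32 members had enough reads to be tested with edgeR's quasi-likelihood test, and 17 were called higher in kidney against 25.7% of all genes tested, and 4 lower against 16.9%. Calls required a fold above 2 or below 0.5 besides an adjusted p (Benjamini-Hochberg) under 0.05. With the replicate number as a block, which takes up what same-numbered kidney and liver libraries share, 16 were called higher in young kidney, without Adamts4. In the DMSO mice 20 of 37 were higher in kidney against 26.6% of all genes, and the same 4 lower against 15.7%. Of 31 members tested in both sets of mice, 26 had the same sign and 19 were called in both. By class, in the young mice 3 of 3 TIMPs tested were higher in kidney, 4 of 8 secreted or other MMPs, 1 of 3 membrane-type MMPs, 7 of 14 ADAMTS proteases and 2 of 4 ADAMTS-like genes. These folds depend on the scaling. With plain library totals in place of TMM the median over all genes moved up by 1.08 (log2) in the young and 0.99 in the DMSO mice, and the genes called became 55.5% higher and 8.82% lower in the young. The members called then became 23 higher and 3 lower in the young. In the DMSO mice they became 29 and 3, beside 52.1% and 8.01% of all genes. Mmp14 lost its call in both sets, and the sign turned for Adamts2, Adamts7, Adamtsl4, Mmp12 and Mmp9 in the young and for Adamts14, Adamts2, Mmp2 and Mmp9 in the DMSO mice. Counts of members that passed the filter on low reads are descriptions, since a member can pass through the organ where it is high.

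Timp3 was at 1688, 1583, 1521 and 1192 CPM in the young kidneys and at 35.9, 42.7, 34.1 and 26.1 CPM in the young livers. No library of one organ came near the other, and the difference was 42.6-fold (log2 fold change 5.41 ± 0.21, adjusted p = 5.25e-10) in the young and 38.3-fold (5.26 ± 0.14, adjusted p = 1.96e-11) in the DMSO mice. Timp2, which takes part with Mmp14 in the activation of proMmp2, was 2.43-fold higher in young kidney, at 62.9 ± 8.1 against 25.6 ± 3.16 CPM (SD, n = 4; log2 fold change 1.28 ± 0.14, adjusted p = 5.77e-06). Adamts15, an aggrecan-cutting protease, was 8.35-fold higher, at 8.73 ± 1.27 against 1.03 ± 0.377 CPM (3.06 ± 0.29, adjusted p = 1.97e-06). In the DMSO mice Timp2 gave 1.58 ± 0.13 (adjusted p = 4.86e-07). With plain totals Timp3 was 89.3-fold and Timp2 5.15-fold higher in young kidney. Timp4 was low in both organs, at 0.562 to 1.58 CPM in young kidney and 0 to 0.0879 in young liver, where it had 1 read in all (5.03 ± 0.89, adjusted p = 0.000328).

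The ADAMTS proteases of the kidney differed among themselves in how far they were shared with liver. Adamts8 was at 2.17, 4.12, 6.14 and 2.41 CPM in the young kidneys and at 0, 0.0699, 0.0869 and 0 in the young livers, where it rested on 0 to 1 reads per library. The log2 fold change was 6.29 ± 0.70 (adjusted p = 6.84e-06), which is 78.3-fold. With plain library totals in place of TMM the 314 reads in kidney against 2 in liver gave a ratio of 190.5 (exact 95% interval 52.3 to 1580, for counting error only). Adamts5, the main aggrecanase of cartilage, was at 17.9 ± 6.17 against 2.78 ± 0.847 CPM (2.67 ± 0.30, adjusted p = 7.27e-06), and Adamts1, which cuts versican and aggrecan, at 24.4 to 46.9 against 11.2 to 15.9 CPM (1.46 ± 0.21, adjusted p = 6.25e-05). In the DMSO mice Adamts5 gave 2.2 ± 0.17 (adjusted p = 1.77e-07) and Adamts1 2.56 ± 0.19 (adjusted p = 1.41e-07). Adamts4, a second aggrecanase, gave 1.15 ± 0.46 (adjusted p = 0.0428) in the young mice, where the organs overlapped, and 2.65 ± 0.25 (adjusted p = 1.43e-06) in the DMSO mice. Adamts16 gave 2.64 ± 0.66 and Adamts9 1.97 ± 0.30. Among the secreted MMPs Mmp28 was at 3.25 ± 0.657 against 0.302 ± 0.205 CPM (3.34 ± 0.45, adjusted p = 3.80e-05) and Mmp13 at 1.91 ± 0.812 against 0.326 ± 0.157 CPM (2.54 ± 0.49, adjusted p = 0.000622). Mmp13 gave 2.29 ± 0.52 (adjusted p = 0.00172) in the DMSO mice. Mmp2 passed the adjusted p and missed the fold in the young mice (0.53 ± 0.20, adjusted p = 0.0321) and did not pass in the DMSO mice (-0.14 ± 0.20, adjusted p = 0.547). Mmp9 (-0.19 ± 0.56 and -0.29 ± 0.31) and Mmp12 (-0.29 ± 0.89 and 0.56 ± 0.44) passed in neither, with adjusted p values of 0.277 to 0.789. With plain totals edgeR called Mmp2 higher in young kidney (1.61, adjusted p = 1.98e-05) and Mmp12 higher in DMSO kidney (1.54, adjusted p = 0.00695). Mmp9 was not called with plain totals in either set of mice. Adamtsl2, which binds fibrillin and latent TGF-beta complexes, was at 22.2 to 34.8 CPM in young kidney and 5.87 to 15.8 in young liver (1.41 ± 0.26, adjusted p = 0.000462). Timp1 and Mmp3 were not tested in the young mice, for lack of reads, and were higher in DMSO kidney than in DMSO liver, at 3.63 ± 0.757 against 0.80 ± 0.282 CPM (2.19 ± 0.30, adjusted p = 3.96e-05) and at 2.14 ± 0.387 against 0.131 ± 0.136 CPM (4.04 ± 0.51, adjusted p = 1.74e-05).

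In the other direction Mmp19 was at 85.0, 118, 104 and 64.3 CPM in the young livers and at 1.11, 1.12, 1.05 and 0.0965 CPM in the young kidneys, a log2 fold change of -6.77 ± 0.40 (adjusted p = 2.43e-08) for kidney over liver. Mmp15, a membrane-type MMP, was at 48.7 ± 5.5 CPM in young liver and 5.46 ± 1.36 in young kidney (-3.17 ± 0.19, adjusted p = 2.81e-08). Adamts13, which cuts von Willebrand factor and is known to be made by hepatic stellate cells, was at 10.8 ± 1.13 CPM in young liver and 0.205 ± 0.172 in young kidney (-5.62 ± 0.44, adjusted p = 3.16e-07), and it was at 0 CPM in DMSO fibroblasts. Mmp14 was also higher in young liver, at 83.6 ± 20.6 against 23.7 ± 4.25 CPM (-1.83 ± 0.19, adjusted p = 4.34e-06). For kidney over liver in the DMSO mice the log2 fold change was -5.85 ± 0.17 for Mmp19, -2.67 ± 0.16 for Mmp15, -4.76 ± 0.25 for Adamts13 and -1.89 ± 0.14 for Mmp14. With plain totals Mmp14 gave -0.74 in the young and -0.89 in the DMSO mice, under the fold threshold, while Mmp19 (-5.70 and -4.86), Adamts13 (-4.56 and -3.77) and Mmp15 (-2.08 and -1.68) were still called.

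**Figure D2:**
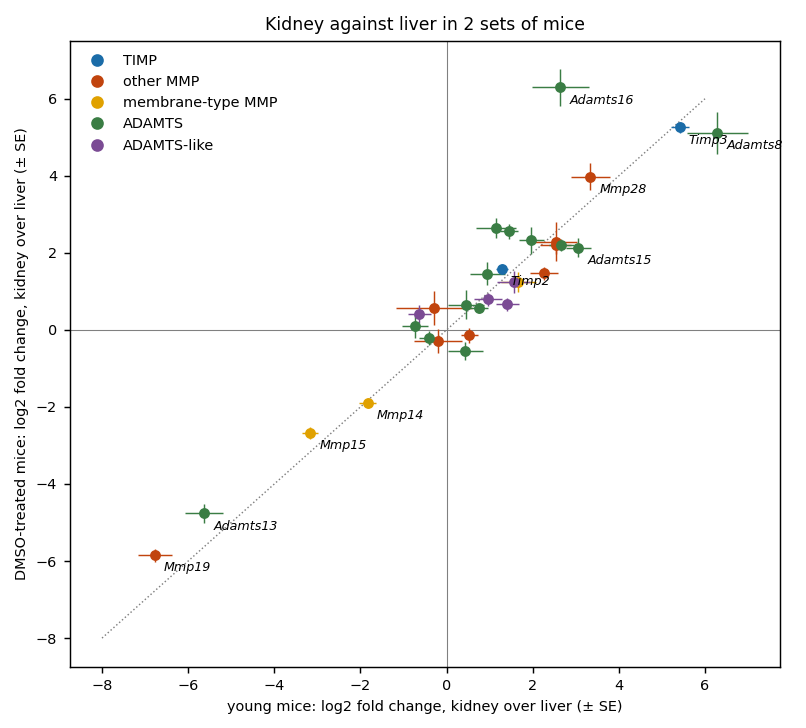
Log2 fold change of kidney over liver in young mice (horizontal) and in DMSO-treated mice (vertical) for the 31 members tested in both, with SE bars, coloured by class; the dotted line marks equal values. Timp3 lies far up to the right at 5.41 and 5.26, and Mmp19, Adamts13, Mmp15 and Mmp14 lie to the lower left, with TMM scaling.

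Age in the kidney raised 6 members and lowered none. The inhibitor Timp1, the stromelysin Mmp3, matrilysin Mmp7, the membrane-type Mmp14, the aggrecanase Adamts4 and the ADAMTS-like gene Adamtsl5 were higher in old kidney, by 2.11-fold to 24.8-fold. Of 35 members tested the 6 higher stand beside 5.68% of all 14495 genes, and the 0 lower beside 0.407%, and at an unadjusted p under 0.05 the count was 14, beside 30.1% of all genes. Without the fold threshold 8 were higher (background 8.15%), with Mmp11 and Mmp23 added. In 9 of the 35 members tested the old libraries all exceeded the young ones, against 9.5% of all genes tested, and in 0 the reverse held, against 10.1%. Among the members not tested Adamts20 lay lower in each old library, on 4 reads in old and 10 in young kidney. The median log2 fold change was 0.35 over the members tested and 0.02 over all genes.

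Timp1, which inhibits most secreted MMPs, was at 0.532, 0.262, 1.17 and 0 CPM in the young kidneys and at 3.78, 3.42, 4.14 and 10.5 CPM in the old. All 4 old libraries lay above the young ones, although the young values rest on 0 to 20 reads per library, and the log2 fold change was 3.61 ± 0.74 (adjusted p = 0.0131). Timp3 had the other sign, at 1192 to 1688 CPM in young and 961 to 1252 in old kidney (-0.40 ± 0.14, adjusted p = 0.102), and did not pass the test. Timp2 (0.56 ± 0.22, adjusted p = 0.132) and Timp4 (-0.59 ± 0.60, adjusted p = 0.534) did not pass it either.

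Mmp3, a stromelysin that cuts many matrix proteins and activates other proMMPs, was at 0.354, 0.675, 0.585 and 0.917 CPM in the young kidneys and at 1.77, 5.39, 3.29 and 6.28 CPM in the old. The groups did not overlap, and the log2 fold change was 2.80 ± 0.47 (adjusted p = 0.00483). Mmp7, a small MMP known from injured tubular epithelium, was at 0, 0, 0.351 and 0.0483 CPM in the young and at 0.823, 1.89, 1.36 and 4.14 CPM in the old (4.63 ± 0.95, adjusted p = 0.013). The young libraries held 0 to 6 reads of Mmp7 and the old 20 to 251, so the size of its change is known less well than its direction, and 11.5% of its exon length is shared with another gene. Both genes lie in the cluster on chromosome 9 and hold TGAGTCA upstream of their starts.

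Mmp11 and Mmp23 passed the adjusted p and missed the fold, at 7.39 ± 0.63 against 4.38 ± 1.24 CPM (0.82 ± 0.23, adjusted p = 0.043) and at 8.3 ± 1.17 against 5.47 ± 0.61 CPM (0.66 ± 0.16, adjusted p = 0.0292). Macrophage elastase Mmp12 was at 1.55, 1.16, 0.995 and 0.193 CPM in the young and 1.48, 4.07, 2.36 and 4.89 in the old kidneys, where the ranges overlapped (1.80 ± 0.55, adjusted p = 0.0619). Mmp9, a gelatinase, was at 0.585 to 1.5 CPM in young and 1.07 to 3.81 in old kidney (1.41 ± 0.48, adjusted p = 0.0896), and DESeq2 called Mmp12 and Mmp9 as well, 8 members in all (background 6.6%). Mmp2, the other gelatinase, gave 0.63 ± 0.30 (adjusted p = 0.197), and Mmp13, a collagenase, -0.49 ± 0.33 (adjusted p = 0.331).

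Mmp14 was at 20.1, 24.9, 20.5 and 29.2 CPM in the young and at 36.1, 41.6, 39.8 and 73.2 CPM in the old kidneys (log2 fold change 1.08 ± 0.25, adjusted p = 0.0204). It was the most abundant of the 6 members called, and replicate 4 of the old group stood apart at the top. Without that library the log2 fold change was 0.77, under the fold threshold, at an edgeR adjusted p of 0.0275. Without young kidney replicate 1, 2 or 3 its adjusted p was 0.0628, 0.0613 and 0.0721. Adamts4 was at 1.46, 1.61, 1.64 and 1.11 CPM in the young and at 2.92, 9.31, 2.87 and 15.9 CPM in the old (2.51 ± 0.57, adjusted p = 0.0194). The groups did not overlap, and without the same 3 young libraries its adjusted p was 0.0569, 0.0614 and 0.0611. Adamtsl5, whose protein lacks a protease domain, was at 1.37, 2.25, 1.4 and 2.12 CPM in the young and 4.81, 3.62, 3.02 and 3.15 in the old (1.08 ± 0.27, adjusted p = 0.0281), and it lost the call without young kidney replicate 1, 2 or 3 or old kidney replicate 1 or 4, at adjusted p values of 0.0520 to 0.0847. Among the other aggrecanases Adamts1 (0.10 ± 0.30, adjusted p = 0.842) and Adamts5 (0.04 ± 0.27, adjusted p = 0.928) gave values near 0, with 95% intervals of -0.56 to 0.76 and -0.55 to 0.64.

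**Figure D3:**
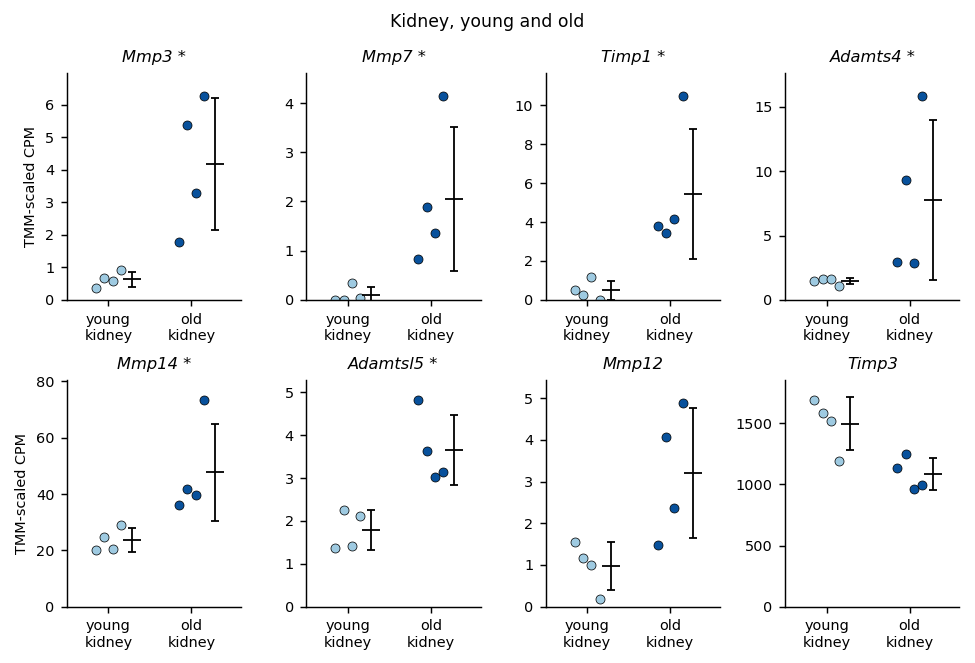
TMM-scaled CPM of 8 members in the 4 young and 4 old kidney libraries (points), with mean ± SD beside them, on linear axes from 0; a star marks the 6 members called. In the 6 starred panels the old libraries all exceed the young ones, in Mmp12 they overlap, and Timp3 has the lower mean in old kidney.

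Of the 6 members Mmp3 and Mmp7 were called in each of the 8 fits that left out 1 kidney library. Timp1 was not called without young kidney replicate 2 (adjusted p = 0.0542). The sizes rested on single libraries in part. Without young kidney replicate 3 the log2 fold change was 6.87 for Mmp7 and 4.39 for Timp1, and without old kidney replicate 4 it was 3.97 for Mmp7 and 1.87 for Adamts4, all still called. Leaving out old kidney replicate 2, which carries liver transcripts, gave 6 calls with the same names. Macrophage markers moved with these changes. All 10 were called higher, and their summed level was 132.2 to 161.6 CPM in young and 625.1 to 1210 CPM in old kidney, with the highest value in replicate 4. B and plasma cell markers summed to 4.86 to 9.70 CPM in young and 283.0 to 413.3 in old kidney, and neutrophil markers to 0.222 to 2.52 and 4.48 to 18.5 CPM, with Mpo at 0 in the young. T cell markers summed to 4.27 to 7.18 CPM in young and 22.8 to 30.5 in old kidney, with 6 of 7 called higher. Fibroblast and stromal markers were at 365.4 to 427.2 and 342.1 to 725.6 CPM, with a log2 fold change above 0 in 10 of 10 and 2 called higher, Lum and Dpt. Proximal tubule markers were at 18020 to 23440 CPM in young kidney and at 18550, 10220, 19170 and 10790 in old replicates 1 to 4, with a log2 fold change above 0 in 0 of 8 and 1 called lower, Slc5a12. The 2 old libraries with the lower tubule level, replicates 2 and 4, were also the 2 highest of the old group for 4 of the 6 members called (Mmp3, Mmp7, Mmp14 and Adamts4). For Timp1 the 2 highest were replicates 3 and 4, and for Adamtsl5 replicates 1 and 2. Their part in the result was not tested. In bulk tissue fewer cells of a type and less RNA per cell cannot be told apart.

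Other genes of the pathway were taken from lists. Among the genes of the ADAM family, not all of which are active proteases, 2 of 9 tested were called higher, Adam8 and Adam23. Among the activators of proenzymes 0 of 7 were called, where the urokinase receptor Plaur passed the adjusted p and missed the fold. Of 19 matrix substrates tested 1 was called, Bgn, a small proteoglycan, and the collagen gene Col1a1 gave a log2 fold change of 0.42 ± 0.28 (adjusted p = 0.325). Ltbp2, a binding partner of fibrillin microfibrils, was at 7.44 CPM against 0.594 (log2 fold change 3.78 ± 0.61, adjusted p = 0.00444), and Tgfb1 was the other of 11 microfibril partners called. Ctss, a cathepsin made by macrophages, rose from 13.3 to 97.1 CPM (2.95 ± 0.34, adjusted p = 0.00112). It was the one called of the 5 genes in the cathepsin list (Ctsk, Ctss, Ctsl, Ctsb and the inhibitor Cst3). In none of these 5 lists was a gene called lower.

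Age in the liver raised 1 member, Mmp27. This little studied MMP of the same cluster was at 1.88, 0.908, 0.521 and 0.615 CPM in the young and at 5.55, 10.1, 8.34 and 2.97 CPM in the old livers, so each old library lay above the young ones. The log2 fold change was 2.78 ± 0.50 (adjusted p = 0.0188) with edgeR. It was 1 of 27 members tested, beside 1.69% of all 12537 genes called higher, and 0 were called lower, beside 0.439%, with 9 members at an unadjusted p under 0.05 (background 14.7%). The call was lost without any one of 5 libraries (young liver replicates 2, 3 and 4 and old liver replicates 2 and 3), at adjusted p values of 0.0510 to 0.0747. DESeq2 called 4 higher (Mmp27, Mmp7, Mmp8 and Mmp9), beside 3.65% of all genes it gave an adjusted p, and 0 lower. The median log2 fold change was 0.44 over the members tested and 0.00 over all genes. Immune cell markers moved with age in the liver too. Macrophage markers summed to 908.2 to 1324 CPM in young and 1372 to 2652 in old liver, with 3 of 10 called higher, and B and plasma cell markers to 7.22 to 9.67 and 29.8 to 143.0 CPM, with 4 of 6 tested called higher and Tnfrsf17 at 0 in the young. T cell markers summed to 4.95 to 8.87 and 11.4 to 18.7 CPM, with 0 of 6 tested called. Their part in the call of Mmp27 was not tested.

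Several further members lay apart between young and old liver without passing the test. Timp2 was at 22.4 to 28.5 CPM in young and 33.4 to 38.7 in old liver (log2 fold change 0.53 ± 0.16, adjusted p = 0.113). Timp3 gave 0.40 ± 0.26 (adjusted p = 0.568), and Timp1 had 0 to 6 reads per library in young and 8 to 34 in old liver and was not tested, nor was Timp4. Mmp14 was at 63.5 to 110.1 CPM in young and 117 to 186 in old liver (0.83 ± 0.22, adjusted p = 0.0834), and Mmp15 had the other sign, at 42.4 to 55.8 against 17.8 to 34.0 CPM (-0.81 ± 0.20, adjusted p = 0.0712). With plain totals in edgeR Mmp14 passed the adjusted p and missed the fold (0.88, adjusted p = 0.0389), and Mmp15 did not pass (-0.71, adjusted p = 0.231). In Timp2, Mmp14 and Mmp15 the groups did not overlap. Of the 27 members tested 4 lay higher in every old liver, Mmp27 among them (background 5.85%), and 1 lower (background 4.22%). Among those not tested Mmp7, Mmp8 and Timp1 also lay higher in every old liver.

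Mmp12 was at 0.376, 0.0699, 4.0 and 0.44 CPM in young and 3.26, 2.69, 2.22 and 5.6 in old liver (1.54 ± 0.83, adjusted p = 0.447). Without young liver replicate 3, the high one, it gave 3.55 with an edgeR adjusted p of 0.0439. Mmp2 (0.08 ± 0.32, adjusted p = 0.967), Adamts1 (-0.01 ± 0.30, adjusted p = 0.998), Adamts4 (0.47 ± 0.53, adjusted p = 0.806), Adamts5 (-0.28 ± 0.40, adjusted p = 0.863) and Adamts13 (-0.26 ± 0.21, adjusted p = 0.697) did not pass. Adamdec1, an ADAM-like protease of macrophages, and Ctss were the 2 genes of these 5 pathway lists called higher in old liver, and 0 were called lower.

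The neutrophil MMPs set 1 old liver apart. Mmp9 was at 1.15, 1.79, 16.8 and 2.77 CPM in the old and 0.15, 1.19, 1.39 and 1.23 in the young livers. The neutrophil collagenase Mmp8 was at 1.5, 0.728, 4.61 and 0.0659 CPM in the old and 0, 0, 0 and 0 in the young livers. Replicate 3 of the old group was the highest for both. Summed neutrophil markers were at 261.4 CPM in that library, at 167.0 in replicate 1 and at 27.5 and 19.1 in replicates 2 and 4, against 1.7 to 8.0 in young liver. Their part in these values was not tested. Without replicate 3 the log2 fold change of Mmp9 was 0.96, against 2.53 ± 0.88 (adjusted p = 0.182) with it.

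Whether age acted differently on the members in kidney and in liver was tested as an interaction in 1 fit of the 4 untreated groups. Of 39 members tested 0 passed an adjusted p of 0.05 with edgeR, beside 1.72% of all genes. With DESeq2 0 passed as well, beside 736 of 15813 genes. At an unadjusted p under 0.05 there were 3 with edgeR (Adamts14, Adamts4 and Timp3, background 14%). With DESeq2 there were 5 of 48, for which the share over all genes was not computed. The difference of the log2 fold changes (liver minus kidney) was 0.85 (95% interval 0.11 to 1.59) for Timp3, -1.95 (95% interval -3.61 to -0.29) for Adamts4 and 1.40 (95% interval 0.06 to 2.74) for Adamts14. For Mmp14, which was called in kidney alone, it was -0.21 (95% interval -0.91 to 0.50). For the other TIMPs, the gelatinases, Mmp3, Mmp12, Mmp13, Adamts1, Adamts5 and Adamts13 it lay between -2.19 (Mmp3, 95% interval -4.41 to 0.04) and 1.18 (Mmp9, 95% interval -1.10 to 3.46), with adjusted p values of 0.366 to 1.0.

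In the fibroblasts 3C lowered the collagenase Mmp13 and the inhibitor Timp1, and no member was called higher. Of 34 members tested 2 were called lower, beside 0.632% of all genes, and 0 higher, beside 1.23%, with 15 at an unadjusted p under 0.05 (background 20.2%). DESeq2 also called these 2 lower (background 0.817%) and 0 higher. Timp1 was at 535, 499 and 526 CPM with DMSO and at 174, 263 and 327 CPM with 3C. The groups did not overlap, and the log2 fold change was -1.02 ± 0.20 (adjusted p = 0.022), close to the fold threshold. With plain totals it was -0.98 (adjusted p = 0.0193), past the adjusted p and under the fold, which left Mmp13 as the 1 member called. It was called without DMSO replicate 2 or 3C replicate 3 and not without any of the other 4 libraries, where it was -0.80 to -1.03 with adjusted p values of 0.0177 to 0.104. Mmp13 was at 0.87, 1.0 and 0.767 CPM with DMSO and at 0.129, 0.21 and 0.0967 CPM with 3C (-2.52 ± 0.47, adjusted p = 0.0157). The groups did not overlap either, but the level was low, with 16 to 31 reads per library against 2 to 6, and the adjusted p was 0.0508, 0.0572 and 0.0505 without DMSO replicate 2, DMSO replicate 3 and 3C replicate 1.

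Other secreted MMPs of the cluster were low or varied. Mmp3 was at 19.6, 12.8 and 16.1 CPM with DMSO and 15.6, 11.4 and 14.2 with 3C, which overlapped (-0.23 ± 0.19, adjusted p = 0.532). Macrophage elastase Mmp12 had 11, 21 and 3 reads with DMSO and 0, 1 and 0 with 3C, at 0.144 to 0.680 against 0 to 0.0349 CPM. The groups did not overlap, but the gene was left out of the test for its low reads, and it was called lower when no filter was used. With plain totals the 1 read against 35 gave a ratio of 0.0334 (exact 95% interval 0.000823 to 0.199, for counting error only). Mmp10, a second stromelysin, was at 0.615 to 1.39 against 0.145 to 0.454 CPM (-1.29 ± 0.52, adjusted p = 0.193). Mmp9, which lies on another chromosome, was at 0.421 to 1.05 against 0.215 to 0.29 CPM (-1.59 ± 0.50, adjusted p = 0.101). Neither Mmp10 nor Mmp9 passed the test, though the groups did not overlap. Mmp7 was at 0 CPM with DMSO.

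Adamts7 and Adamtsl1 rose by less than the fold threshold, the 2 members higher by adjusted p alone (background 2.43%). Adamts7, which cuts cartilage oligomeric matrix protein, was at 13.9, 18.2 and 15.2 CPM with DMSO and at 35.2, 30.1 and 24.0 with 3C (0.93 ± 0.16, adjusted p = 0.0107). Adamtsl1 was at 5.75, 4.92 and 6.23 against 12.6, 8.0 and 9.34 CPM (0.83 ± 0.20, adjusted p = 0.0427). Adamts15 passed the fold and missed the adjusted p. It was at 3.71, 8.84 and 6.90 CPM with DMSO and at 9.97, 23.2 and 9.19 with 3C, which did not overlap (1.14 ± 0.37, adjusted p = 0.112), and it was called higher with the replicate block, with no filter and without 3C replicate 3. The abundant Mmp14 was at 1002 to 1142 CPM with DMSO and 1106 to 1801 with 3C (0.47 ± 0.18, adjusted p = 0.179), and Mmp2 at 431 to 572 against 597 to 799 CPM (0.43 ± 0.16, adjusted p = 0.154). Timp2 was at 2089 to 2285 against 2355 to 2660.4 CPM (0.19 ± 0.14, adjusted p = 0.486) and Timp3 gave -0.02 ± 0.16 (adjusted p = 0.959). None of these 4 passed the test, nor did Adamts1 (-0.23 ± 0.17, adjusted p = 0.501), Adamts4 (-0.38 ± 0.21, adjusted p = 0.352) or Adamts5 (-0.04 ± 0.15, adjusted p = 0.898). In 8 of the 34 members tested every 3C library lay above every DMSO library (background 12%) and in 4 below (background 13.7%), and of those not tested Timp4 lay above and Mmp12 below, while the median log2 fold change was 0.25 beside 0.01 over all genes.

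**Figure D4:**
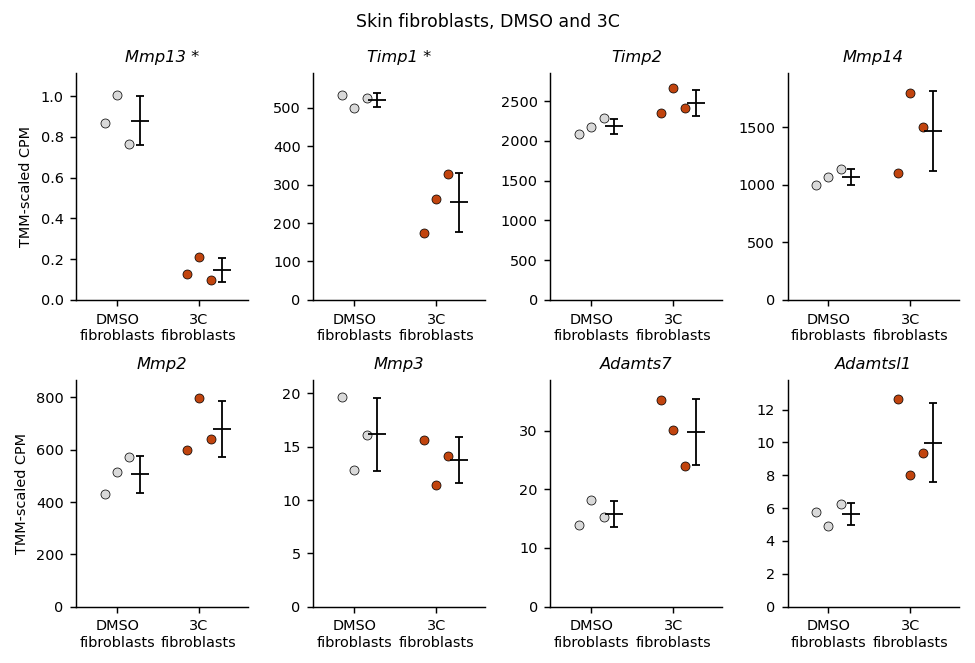
TMM-scaled CPM of 8 members in 3 DMSO and 3 3C fibroblast libraries (points), with mean ± SD beside them, on linear axes from 0; a star marks the 2 members called. Mmp13 and Timp1 lie lower in all 3C libraries, Adamts7, Adamtsl1, Mmp2 and Timp2 lie higher, and Mmp3 and Mmp14 overlap.

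Macrophage markers also differed between the fibroblast groups, at 231.3 to 297.6 CPM with DMSO and 93.0 to 142.2 with 3C, and smooth muscle markers were at 2871 to 3126 against 1688 to 2325 CPM, while fibroblast and stromal markers overlapped at 11820 to 16730 and 12100 to 16720 CPM. Their part in the result was not tested. Among the other pathway genes, Plaur, the receptor of urokinase, and Ctss were called lower and Eln, the elastin gene, was called higher.

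In the kidney 3C gave no called member, yet most members lay below their DMSO level. Of 38 members tested 0 were called in either direction, as were 0 of all 14974 genes with edgeR (0% background) and 0 members with DESeq2, and 12 members had an unadjusted p under 0.05 with each tool (background 11.9% with edgeR). The log2 fold change was below 0 in 32 members (3 of 4 TIMPs, 8 of 10 secreted or other MMPs, 4 of 4 membrane-type MMPs, 12 of 15 ADAMTS proteases and 5 of 5 ADAMTS-like genes), while 51.4% of all genes lay above 0, and the median was -0.32 against 0.00 over all genes. In 7 of the 38 members tested every 3C library lay below every DMSO library, against 3.02% of all genes tested, and in 0 above, against 4.17%. The untested Adamts20 also lay below, on 25 reads with DMSO and 5 with 3C. Counts below 0 stayed between 31 and 33 when any one library was left out, and plain totals gave 32.

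The members whose groups did not overlap included an inhibitor and enzymes. Timp2 was at 104, 82.7, 83.3 and 104 CPM with DMSO and at 57.3, 77.3, 73.4 and 67.9 with 3C (log2 fold change -0.46 ± 0.11, adjusted p = 0.195). Mmp14 was at 40.1, 46.2, 47.9 and 52.3 CPM against 31.4, 33.9, 31.3 and 36.6 CPM (-0.51 ± 0.09, adjusted p = 0.138), and Mmp2 at 5.99, 6.65, 6.51 and 9.24 against 4.63, 5.46, 4.14 and 4.94 CPM (-0.59 ± 0.16, adjusted p = 0.226). Mmp3 was at 1.73 to 2.54 against 0.974 to 1.67 CPM (-0.62 ± 0.23, adjusted p = 0.33). Adamts2, a procollagen peptidase, gave -0.74 ± 0.20 (adjusted p = 0.224), Adamts7 -0.46 ± 0.16 (adjusted p = 0.303) and Adamtsl1 -0.56 ± 0.14 (adjusted p = 0.208). Adamts7 and Adamtsl1 thus had opposite signs in kidney and in fibroblasts, a contrast that was not tested.

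Timp3, the most abundant member of the kidney, was at 1007 to 1233 CPM with DMSO and 1083 to 1470.4 with 3C (0.14 ± 0.10, adjusted p = 0.645). The gelatinase Mmp9 (-0.35 ± 0.31, adjusted p = 0.712), Mmp12 (-0.23 ± 0.35, adjusted p = 0.848) and Mmp13 (0.11 ± 0.28, adjusted p = 0.924) overlapped between the groups, as did the inhibitors Timp1 (-0.45 ± 0.27, adjusted p = 0.551) and Timp4 (-0.59 ± 0.55, adjusted p = 0.731). Among the ADAMTS proteases Adamts1 (-0.19 ± 0.11, adjusted p = 0.527), Adamts4 (-0.15 ± 0.31, adjusted p = 0.894), Adamts5 (-0.41 ± 0.18, adjusted p = 0.40) and Adamts13 (0.13 ± 0.40, adjusted p = 0.94) overlapped too.

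**Figure D5:**
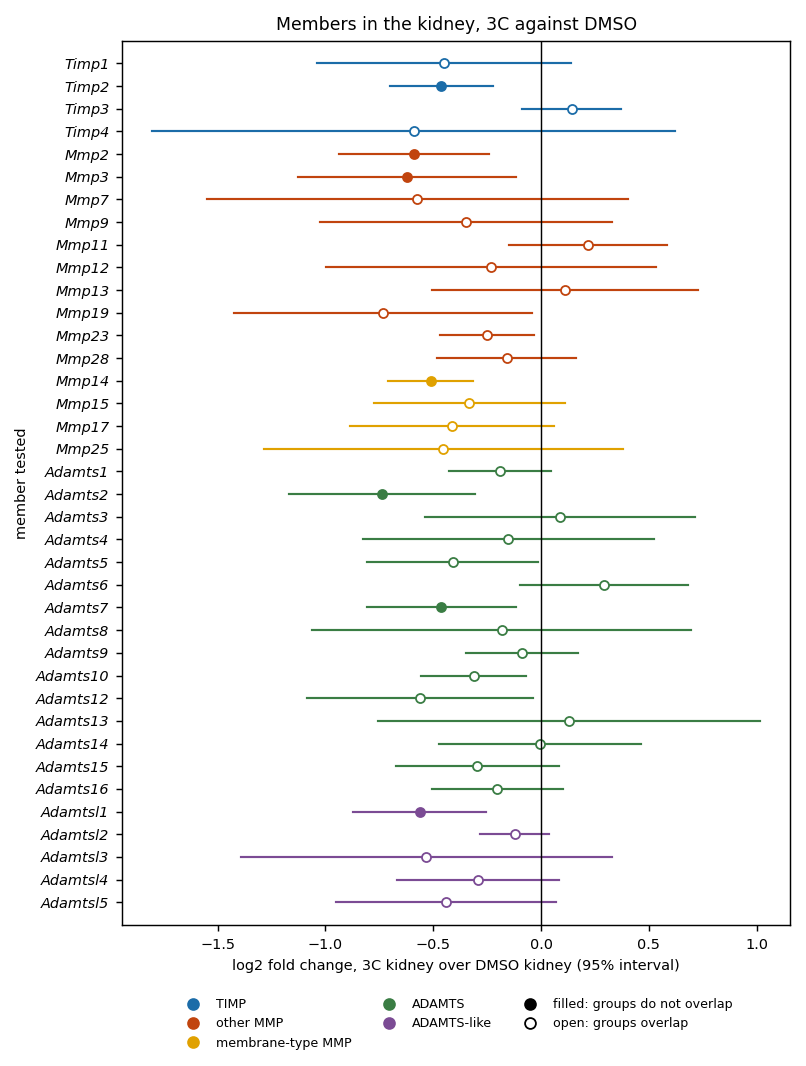
Log2 fold change of 3C over DMSO kidney with its 95% interval for the 38 members tested, coloured by class; filled points mark members whose DMSO and 3C libraries do not overlap. Most points lie left of 0, and the 7 filled points are all among them.

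Marker sums also lay apart between these libraries. Fibroblast and stromal markers summed to 429.9 to 556.1 CPM with DMSO and 238.2 to 389.2 with 3C, smooth muscle markers to 197.6 to 253.0 and 125.4 to 191.5 CPM, and macrophage markers to 432.2 to 474.6 and 275.0 to 417.3 CPM, without overlap in any of the 3 lists. Their part in the values of the members was not tested. Proximal tubule markers overlapped, at 9140 to 12180 and 8754 to 12910 CPM. The matrix substrates and the microfibril partners showed the same sign in that kidney comparison, with 1 of 19 and 0 of 12 genes above 0 and 0 called in either list.

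In the liver 3C gave no called member either, with 0 of 28 tested, 0 of 13042 genes called by edgeR (0% background) and 0 members called by DESeq2. At an unadjusted p under 0.05 there was 1 member with each tool (background 3.34% with edgeR), which was Adamts2 with edgeR, at 8.27 to 15.3 CPM with DMSO and 6.67 to 11.2 with 3C (-0.52 ± 0.23, adjusted p = 1.0). All 28 members overlapped between the groups. Timp2 was at 24.4 to 34.8 against 23.8 to 35.5 CPM, a log2 fold change of -0.20 (95% interval -0.57 to 0.17), and Mmp14 gave -0.18 (95% interval -0.48 to 0.13). Timp1 gave 0.45 ± 0.63, Timp3 0.05 ± 0.16, Mmp2 -0.32 ± 0.24, Mmp9 -0.78 ± 0.47 and Mmp12 0.77 ± 0.58, and among the ADAMTS proteases Adamts1 gave 0.08 ± 0.26, Adamts4 0.12 ± 0.49, Adamts5 -0.48 ± 0.27 and Adamts13 -0.35 ± 0.17, each with an adjusted p of 1.0. The difference between the 3C effects in liver and kidney was called in 0 of 39 members with edgeR (0% background) and in 0 with DESeq2, with 1 at an unadjusted p under 0.05 by each (background 3.57% with edgeR). Adamtsl1 was that member with edgeR, at 0.82 (95% interval 0.24 to 1.41) for liver minus kidney. For the TIMPs, the gelatinases, Mmp3, Mmp12, Mmp13, Mmp14, Adamts1, Adamts4, Adamts5 and Adamts13 it lay between -0.52 (Mmp3) and 0.99 (Mmp12), each with an adjusted p of 1.0, leaving out Timp4, for which no usable estimate was had.

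Open chromatin at the starts of the members was read from the deposited peaks, called in each ATAC-seq library on its own. In kidney 23 of the 51 members had a peak within 1 kb of a start in all 6 libraries and 10 in none, against 62.0% and 24.8% of 20626 genes. In liver 17 had one in all 6 and 11 in none, against 55.8% and 24.7%. Mmp19 had a peak in all 6 liver libraries, with a fold enrichment of 2.90 to 5.23, and in none of the 6 kidney libraries, a pattern held by 0.257% of all genes. Timp3 had a peak in all 6 kidney libraries and in 2 of 6 liver libraries, and Adamtsl3 in all 6 kidney and in 0 liver libraries, a pattern held by 1.11% of all genes. With peaks of −log10 q of at least 5 alone, Mmp19 had one in 3 young and 2 of 3 old livers and Adamtsl3 in 3 young and 0 old kidneys, so neither pattern held. Timp3 then had one in 1 of 3 young and 3 of 3 old kidneys and in 0 liver libraries. These presence patterns carry no test.

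With age no member gained a peak in all 3 old libraries from none in the young, in kidney or in liver, against 0.170% and 0.296% of all genes. Adamtsl5 had a peak in all 3 young and in 0 old livers (0.262% of all genes), while its RNA did not pass the test there, and in 2 young and 3 old kidneys. At the stricter −log10 q it had a peak in 0 young livers, so this pattern did not hold either. Of the 6 members called in old kidney Mmp14 had a peak in all 6 kidney libraries, at 2.74 to 3.74 in the young and 2.33 to 3.18 in the old, and Timp1 in 2 of 3 young and 2 of 3 old. Adamts4 had one in 1 young and 1 old kidney library. Mmp3 and Mmp7, whose upstream stretches hold TGAGTCA, had no peak within 1 kb in any of the 12 libraries, and Mmp27 had one in 1 young and 1 old liver.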

How the data were processed

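RNA-seq libraries (38) and ATAC-seq libraries (12) were analysed from the deposited files. RNA-seq reads had been trimmed by the authors (Trimmomatic 0.39) and mapped to the mm10 genome (HISAT2 2.2.1), and raw counts per gene were deposited as HTSeq 0.12.4 gave them, without strand. A gene that shares exons with another could therefore lose reads, or hold reads of its partner. For the ATAC-seq the authors aligned with Bowtie2 2.3.5.1 and called MACS2 peaks in each library, deposited with a fold ratio over local background and −log10 p and q values.

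Reads outside genes, 5.85% to 19.1% of each library, were left out. Each pair of groups was fitted alone over all genes with edgeR 4.0.16 (R 4.3.3): TMM scaling, genes kept by filterByExpr at a minimum count of 10, the quasi-likelihood F test and Benjamini-Hochberg adjustment over all genes. Calls needed a fold above 2 or below 0.5 with an adjusted p under 0.05, and interactions the adjusted p alone. Errors of log2 fold changes are standard errors and intervals are 95%. Levels are CPM with TMM scaling over all 38 libraries, divided by GENCODE exon length (GRCm38) where genes are compared. Peaks within 1 kb of a gene's start were counted, and their coordinates fitted the chromosome lengths of GRCm38. Upstream sequences came from RefSeq (GRCm38.p6), and 36 of the 51 members had one. Fits were tested on simulated data.

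Groups came from the labels, which do not say that replicates are separate animals or cultures, so p-values measure the spread between these libraries. In the 54 pairs of replicates no 2 libraries agreed within sampling noise. Same-numbered young kidney and liver libraries deviated together over all genes (correlations of 0.118, 0.219, 0.105 and 0.458), so their replicate block is given. In no other comparison did every number pass 0.1.

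The members, the marker and pathway lists and the alternatives were chosen with earlier results of these data known. The list of other inhibitors and regulators is not reported here. Full statistics are given for members with an adjusted p under 0.05 in an age, 3C or interaction test, for Timp1 to Timp4, Mmp2, Mmp3, Mmp9, Mmp12, Mmp13, Mmp14, Adamts1, Adamts4, Adamts5 and Adamts13 wherever tested in the age and 3C comparisons and in kidney against liver (interactions by range), and for the 3 members highest in each organ by p; members named for non-overlapping groups, and Mmp8 and Mmp10, were chosen after their values were seen. Alternatives were DESeq2 1.42.0, its size factors in edgeR, other filters, a replicate block, each library left out, stricter peaks, a shorter distance and, chosen after seeing the data, plain library totals in place of TMM and counts of members below 0 in 3C kidney under each of these.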

Additional observations from a re-analysis of the deposited data

Results flagged for a closer look

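In 24 members, 162 groups of 4 libraries whose highest library reached 1 CPM were searched for a library far from the other 3, by Dixon's criterion. Of these 13 groups (8.02%) held one, where chance gives about 1 in 20. The values are in CPM.

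In kidney, old replicate 4 was high for Mmp14 (73.2, others 36.1 to 41.6) and Timp1 (10.5, others 3.42 to 4.14), both called with age. Old replicate 2 was high for Mmp15 (6.48, others 3.83 to 4.28). Young replicate 4 was low for Mmp19 (0.0965, others 1.05 to 1.12), young replicate 3 low for Mmp23 (4.56, others 5.74 to 5.84) and young replicate 2 high for Mmp9 (1.5, others 0.585 to 0.724). In 3C kidney replicate 4 was high for Adamts1 (46.1, others 43.8 to 44.2), a small gap in a narrow group.

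In liver, old replicate 3 was high for Mmp9 (16.8, others 1.15 to 2.77), young replicate 1 low for Mmp9 (0.150, others 1.19 to 1.39) and young replicate 3 high for Mmp12 (4.0, others 0.0699 to 0.440). DMSO replicate 3 was high for Mmp14 (225.9, others 153.0 to 163.7), 3C replicate 1 low for Mmp19 (50.1, others 102.2 to 109.5) and 3C replicate 2 low for Timp3 (21.8, others 33.9 to 34.5).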

How the results depend on the processing

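The 6 members called with age in kidney ranged from 2 to 6 when 1 library was left out. In liver the 1 called with age became 4 with DESeq2, 2 with no filter and 0 to 2 with 1 library left out. In fibroblasts the 0 called higher with 3C became 1 with no filter and 1 with the replicate block, Adamts15 in both, 2 by adjusted p alone and 0 to 2 with 1 library left out, and the 2 called lower became 1 at a mean of at least 1 CPM, where Mmp13 was not tested, 1 with plain library totals, where Timp1 missed the fold, and 0 to 2 with 1 library left out. With −log10 q of at least 5, 14 members in kidney and 8 in liver had a promoter peak in all 6 libraries, against 54.7% and 40.6% of all genes. Of 269 comparisons of these counts with an alternative 245 stayed within 1.5 times. A count of 0 that stayed at 0 was among these, as for all calls in 3C kidney, 3C liver and the interactions. The total therefore does not measure how stable the calls are. The cause of the changes was not tested.

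The replicate block gave 4 members called with age in kidney (Mmp3, Mmp7, Mmp14 and Timp1), 1 in liver, 2 called lower with 3C in fibroblasts and 16 higher in young kidney, and it changed no count of 3C kidney, 3C liver, DMSO tissue or the interactions.

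Members near 0 changed sign when 1 library was left out, with log2 fold changes from -0.13 to 0.29 for Adamts1 and -0.12 to 0.22 for Adamts5 with age in kidney, from -0.20 to 0.23 for Adamts1 and -0.17 to 0.28 for Mmp2 with age in liver, and from -0.14 to 0.066 for Adamts5 and -0.13 to 0.076 for Timp3 with 3C in fibroblasts. With 3C in kidney they ran from -0.17 to 0.43 for Adamts13, -0.41 to 0.12 for Adamts4, -0.46 to 0.079 for Mmp12 and -0.16 to 0.29 for Mmp13. Adamts1 with age in liver was 0.014 at a mean of at least 1 CPM and 0.09 with plain totals, and with 3C in fibroblasts plain totals gave 0.001 for Adamts5 and 0.025 for Timp3. In 3C kidney the members below 0 were 31 to 33 with 1 library left out. Low read counts limit Mmp7, Mmp13, Timp1 in liver and Timp4.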
